A study of Mus musculus with 18 samples.

Results

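Homeobox genes encode transcription factors that bind DNA through a homeodomain. Spots on a mouse two-colour array were taken for this account where the platform annotation gave a symbol of the Hox, Meis, Pbx, Hmx, Lhx, Nkx, Dlx, Pitx, Otx, Emx, Irx, Msx or Pou families or of the sine oculis class (Six2 and its relatives). This rule found 112 spots for 103 genes, among 20218 features (15095 of them named genes) with a usable ratio. Of the 103, 4 are antisense or opposite-strand transcripts that carry a homeobox gene's name (Dlx6os2, Hoxa11os, Hoxd3os1 and Lhx1os) and encode no transcription factor of their own, which leaves 99. No filter on low values was applied, so all 103 were tested in each tissue.

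The study set the inbred mice DBA/2J against C57BL/6J in whole brain, kidney and liver. Each of the 18 arrays hybridised total RNA of a DBA/2J pool, labelled with Alexa Fluor 647, against RNA of a C57BL/6J pool of the same tissue, labelled with Alexa Fluor 555. A pool held 10 mice in brain and kidney and 9 in liver, and each tissue had 6 arrays. The labels name no engineered allele and no treatment for either strain, and no label states the age of the mice. The 6 arrays of each tissue used common RNA pools, so p-values here measure the spread between hybridisations and not between mice. Dyes were not swapped, so a dye effect that is constant for a spot cannot be told apart from a strain difference. The number of arrays limits the precision of every value.

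Values are log2 ratios, given as mean ± SD over 6 arrays, and positive values mean more signal in DBA/2J. No source states this direction, which is called likely from the dye order in the labels and the usual red-over-green order. Glo1, which encodes glyoxalase 1 and is known to be duplicated in DBA/2J, served as the check. Its brain ratio was 0.64 ± 0.14, its kidney ratio 0.78 ± 0.34 and its liver ratio 0.91 ± 0.14, above 0 on 6 of 6 arrays each time; without loess the kidney ratio was 1.35. A gene passed the threshold at a Benjamini-Hochberg adjusted p under 0.05 over all 20218 features, from limma's moderated test of the 6 arrays against 0.

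The tissue labels were checked against marker genes by restored spot intensity, compared for each probe across tissues. Of 18 brain markers measured, 17 were brightest in brain. The same held for 13 of 17 kidney markers in kidney and 17 of 18 liver markers in liver. Ratios on the arrays of a tissue correlated over all single spots used, with a mean r of 0.381 (brain), 0.649 (kidney) and 0.474 (liver).

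Homeodomain proteins set positional and cell identity in the embryo, and many stay active in adult organs. Hox genes lie in 4 clusters, on chromosomes 6, 11, 15 and 2 in the mouse, and mark position along the body axis. MEIS and PBX proteins of the TALE class bind DNA together with Hox proteins and raise their selectivity. HMX, NKX, DLX, LHX, OTX and POU class III proteins pattern the nervous system, pituitary, inner ear or eye, whereas IRX, HOX10, HOX11 and LHX1 proteins take part in forming the nephron or kidney.

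The values turn on Hmx2 and Meis1, so the annotated sequence before their starts is shown. These are the 250 bases upstream of each start in RefSeq's GRCm38.p6 annotation, read on the gene's strand. Capitals mark a match to TATAAA, the TATA box. The other motifs searched were TGACAG, a core bound by MEIS proteins, and TAATTA, a homeodomain palindrome; both strands were read, and these motifs do not overlap in the windows shown. Over 32851 windows of the same length, 12.4% held TATAAA, 15.9% TGACAG and 4.84% TAATTA. The windows lie at chr7:131548507-131548756 (plus strand) and chr7:131554043-131554292 (plus strand) for the alternative starts of Hmx2, and at chr11:19018970-19019219 (minus strand) for Meis1.
Hmx2, upstream start: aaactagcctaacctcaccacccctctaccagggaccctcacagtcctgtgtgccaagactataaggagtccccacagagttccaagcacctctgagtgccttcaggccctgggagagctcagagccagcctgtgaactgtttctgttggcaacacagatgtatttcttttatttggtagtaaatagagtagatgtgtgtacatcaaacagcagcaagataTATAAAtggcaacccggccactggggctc
Hmx2, downstream start: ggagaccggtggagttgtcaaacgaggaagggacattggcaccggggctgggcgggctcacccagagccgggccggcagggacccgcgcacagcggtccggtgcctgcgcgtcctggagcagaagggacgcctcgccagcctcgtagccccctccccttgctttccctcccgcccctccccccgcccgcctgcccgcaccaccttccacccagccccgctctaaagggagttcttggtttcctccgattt
Meis1: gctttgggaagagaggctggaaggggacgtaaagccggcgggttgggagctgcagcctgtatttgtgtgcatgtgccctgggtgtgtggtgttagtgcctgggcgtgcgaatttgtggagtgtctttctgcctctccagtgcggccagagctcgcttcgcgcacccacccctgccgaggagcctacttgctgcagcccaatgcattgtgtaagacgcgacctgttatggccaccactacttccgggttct
The upstream Hmx2 window held 1 TATAAA, 29 bases before the start, and no other motif searched, with 49.6% G and C. The downstream Hmx2 window (70.0% G and C) and the Meis1 window (59.6%) held none of these letters. The arrays measured RNA and not these windows, so the matches are a description of the sequence only.

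Hmx2, a homeobox factor of the hypothalamus and inner ear, had far less signal in DBA/2J than in C57BL/6J brain. On brain arrays 1 to 6 its log2 ratio was -2.06, -2.52, -1.25, -3.10, -1.64 and -2.98. All 6 arrays lay below the lowest value of any kidney or liver array for this gene. The mean was -2.26 ± 0.74 (n = 6), which is 4.78-fold lower, with an adjusted p of 8.74e-05 from limma. It was the largest ratio by size among the 103 genes and ranked 3 of 20218 over all features. Leaving out any array kept the mean between -2.46 and -2.09.

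In kidney, Hmx2 read -0.21, -0.10, -0.49, -0.12, -0.54 and -0.06, with a mean of -0.25 ± 0.21 (1.19-fold lower, adjusted p 0.0197 by limma). That call was lost without kidney array 3 (-0.21) or kidney array 5 (-0.20), and the mean was -0.06 when a single loess curve per array replaced the print-tip curves. Without any loess it was -0.50. In liver the arrays read 0.05, 0.04, -0.08, -0.16, -0.07 and 0.15, on both sides of 0, with a mean of -0.01 ± 0.11 that did not pass (adjusted p 0.914). The liver mean was 0.26 (adjusted p 0.0237) with a single loess curve per array. The ratio in brain was lower than in kidney by -2.01 (SE 0.21, adjusted p 6.1e-07) and lower than in liver by -2.25 (SE 0.21, adjusted p 2.36e-07) in limma's fit of all 18 arrays. The spot's restored intensity, which depends on the probe as well as on the RNA, lay at percentile 38.6 (brain), 21.9 (kidney) and 22.0 (liver).

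The other members of its family did not follow Hmx2. Hmx3, the neighbouring paralogue on chromosome 7 with a related role in the inner ear and hypothalamus, was at 0.10 ± 0.21 in brain (adjusted p 0.484), 0.14 ± 0.08 in kidney and 0.06 ± 0.15 in liver. Its kidney mean turned to -0.21 without loess and to -0.09 with a single curve per array. Hmx1, known for its role in the eye and external ear, was at 0.05 ± 0.20 in brain, 0.26 ± 0.63 in kidney and 0.26 ± 0.36 in liver, and passed in none.

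Meis1, a TALE factor needed for blood stem cells and the eye, had more signal in DBA/2J brain and kidney. The kidney arrays were tight, at 1.57, 1.41, 1.31, 1.44, 1.57 and 1.41. The kidney mean was 1.45 ± 0.10 (n = 6), or 2.73-fold higher, with an adjusted p of 7.66e-09, and it was the largest of the 103 in kidney. It was 2.23 without loess and lay between 1.43 and 1.48 with any array left out.

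In brain, Meis1 read 1.11, 0.60, 1.19, 1.43, 1.19 and 0.84, all above 0. The mean was 1.06 ± 0.29 (2.09-fold higher, adjusted p 0.000134), in the same direction as in kidney and opposite to Hmx2. In liver the arrays spread from 0.01 to 1.19 (0.52, 0.35, 0.05, 0.01, 0.12 and 1.19), with a mean of 0.37 ± 0.45 that did not pass (adjusted p 0.059). Liver array 6 alone was above 1, and without it the liver mean was 0.21. Without loess the liver mean was 0.44 and passed. The ratio exceeded that of liver by 0.69 in brain (adjusted p 0.0072) and by 1.08 in kidney (adjusted p 2.69e-05). The brain ratio minus the kidney ratio was -0.39 (95% interval -0.72 to -0.06, adjusted p 0.0732) and did not pass. Its intensity percentile was 45.6 (brain), 93.3 (kidney) and 94.9 (liver).

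**Figure D1:**
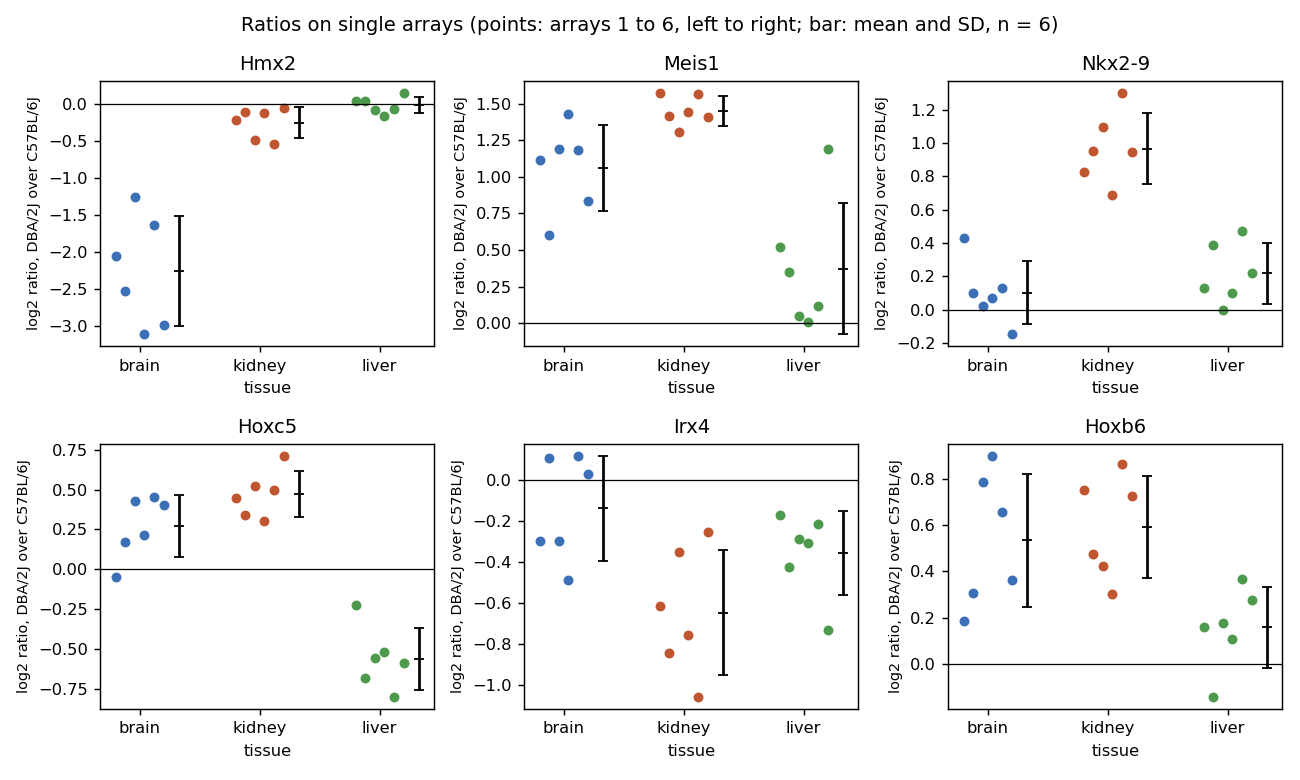
Log2 ratio of DBA/2J over C57BL/6J on each array (points, arrays 1 to 6 from left to right) for 6 homeobox genes in brain, kidney and liver, with the mean and SD (n = 6) as a bar; the vertical scale differs between panels. Hmx2 is far below 0 in brain alone, Meis1 is above 0 on every array, and Hoxc5 is above 0 in kidney and below 0 in liver.

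In brain the other 101 genes lay closer to 0 than Hmx2 and Meis1, whereas many in kidney and nearly all in liver exceeded Hmx2 in size. In brain they ran from -0.46 (Nkx6-1) to 0.53 (Hoxb6), with a median size of 0.10. In kidney they ran from -0.65 (Irx4) to 0.97 (Nkx2-9), with a median size of 0.16, and in liver from -0.56 (Hoxc5) to 0.46 (Pou3f4), with a median size of 0.10. By size, Hmx2 ranked 1, 32 and 97 of 103 in brain, kidney and liver, and Meis1 ranked 2, 1 and 5. At a change of at least 1.5-fold past the threshold stood 2 genes in brain (Hmx2 and Meis1), 4 in kidney and none (0) in liver; over all features the shares were 1.70%, 5.07% and 2.39%.

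With print-tip loess on restored intensities and all arrays, the share of homeobox genes past the threshold was not above the background share in any tissue. In brain 11 of 103 passed (4 higher and 7 lower in DBA/2J), or 10.7%, beside 13.7% of all features (7.42% higher, 6.28% lower). In kidney 41 passed (21 higher, 20 lower), or 39.8%, beside 42.0% (21.0% each way). In liver 13 passed (3 higher, 10 lower), or 12.6%, beside 22.9% (10.8% higher, 12.1% lower). Only 7 passed in liver without liver array 1, 4 or 6, when 15.8%, 15.4% and 15.8% of all features passed. Without loess 18 passed in liver (9 higher, 9 lower), beside 24.9% of all features. With a single curve per array 19 passed there (9 higher, 10 lower), beside 26.4%. The count in brain was 21 without loess (17.5% of all features) and 19 with a single curve per array (14.7%), and the kidney count was 71 without loess (64.9%). The brain and kidney counts in the sentence before are each a larger share of the 103 than the share of all features beside them. All liver counts given are smaller shares.

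Median ratios of the 103 genes were -0.06 (brain), 0.01 (kidney) and -0.03 (liver), where all features had medians of 0.00. The arrays agreed in sign on all 6 for 19 genes in brain (18.4%), 36 in kidney (35.0%) and 16 in liver (15.5%), beside 18.2%, 36.5% and 25.0% of all features. Across tissues, 53 genes passed in none, 36 in 1, 13 in 2 and 1 (Hoxc5) in all 3. Of the 13, all but Lhx2 and Pou3f1 had the same direction in both tissues. The same counts over all features were not made, so no trait particular to homeobox genes is read from them.

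**Figure D2:**
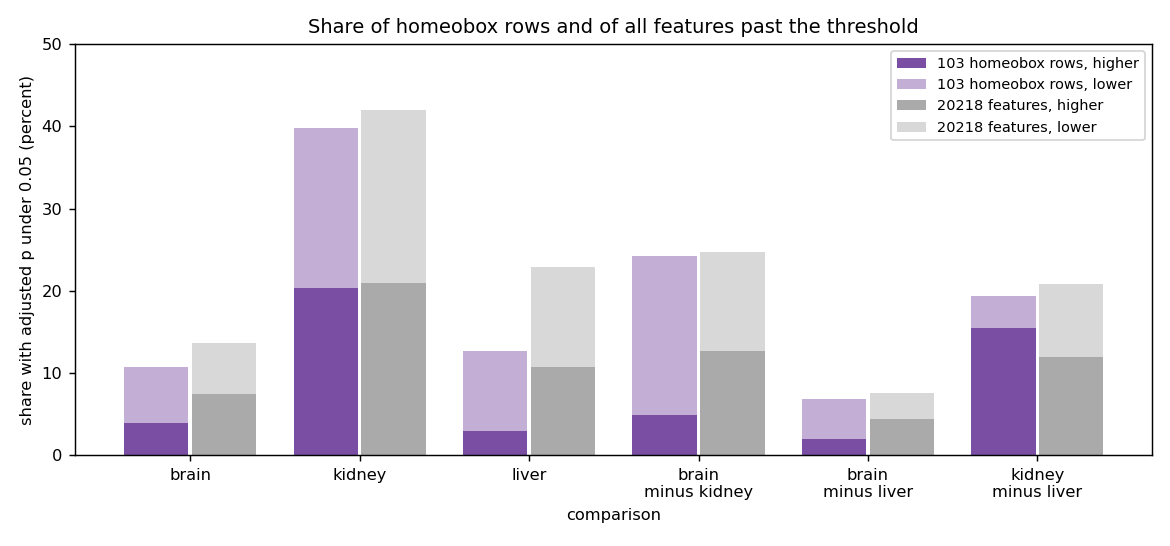
Share of features with an adjusted p under 0.05 (percent, bars from 0) in each tissue and each comparison of tissues, for 103 homeobox rows (purple) and all 20218 features (grey); the darker part of a bar is higher and the paler part lower. The homeobox share is 10.7% beside 13.7% in brain, 39.8% beside 42.0% in kidney and 12.6% beside 22.9% in liver.

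Among the 34 Hox genes measured, 4 passed in brain (11.8%), 14 in kidney (41.2%) and 4 in liver (11.8%), beside 13.7%, 42.0% and 22.9% of all features. These shares of all features are the background for every family count that follows, and over all features too kidney had the most calls. Hoxc5, a gene of the central Hoxc cluster, was the only member past the threshold in all tissues, and its direction turned. Its kidney arrays read 0.45, 0.34, 0.52, 0.31, 0.50 and 0.71, and its liver arrays -0.22, -0.68, -0.55, -0.52, -0.80 and -0.58. These groups of arrays do not overlap, and the means were 0.47 ± 0.15 in kidney (adjusted p 0.00016) and -0.56 ± 0.19 in liver (adjusted p 0.000587). The difference of kidney minus liver was 1.03 (SE 0.11, adjusted p 2.79e-07). In brain the mean was 0.27 ± 0.19 (adjusted p 0.0459), a call lost without any of brain arrays 2 to 6 (0.23 to 0.29). Without loess the kidney mean was 1.39 and the brain mean 0.52, in the same directions.

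Hoxb6, expressed in trunk mesoderm and the hindlimb, was higher in brain and kidney. Brain arrays read 0.18, 0.31, 0.79, 0.90, 0.66 and 0.36 and kidney arrays 0.75, 0.48, 0.42, 0.30, 0.87 and 0.72, all above 0. The means were 0.53 ± 0.29 (adjusted p 0.00589) and 0.59 ± 0.22 (adjusted p 8.82e-05), with 0.16 ± 0.17 in liver, where 1 array was below 0. The kidney mean was 0.26 without loess and 0.33 with unrestored intensities. The spot was dim, at percentiles 11.7, 17.6 and 7.84.

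Of the 10 Hoxa genes, 5 passed in kidney, where 42.0% of all features did, and none (0) in brain or liver. Hoxa13, which patterns the hindgut and distal limb, was at -0.42 ± 0.16, Hoxa7 at -0.32 ± 0.19, Hoxa10 at -0.24 ± 0.27, Hoxa3 at -0.22 ± 0.19 and Hoxa9 at 0.27 ± 0.15. Hoxa13 and Hoxa7 were at -0.94 and -1.04 without loess, and the cause was not tested. Their spots were dim in kidney, at percentiles 12.5 and 6.41. Of 7 Hoxb genes, Hoxb6 passed in brain, and Hoxb6 and Hoxb13 (0.18 ± 0.11) in kidney.

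Of 8 Hoxc genes, 3 passed in kidney and 2 in liver. Hoxc8, which acts in motor neurons and the rib cage, was lower in both, at -0.36 ± 0.09 in kidney and -0.26 ± 0.17 in liver. Its liver call was lost without liver array 4 (-0.22), 5 (-0.22) or 6 (-0.25), and with unrestored intensities (-0.21); both values were larger without loess (-0.82 and -0.49). Hoxc4 was at -0.33 ± 0.31 in kidney, which did not pass without kidney array 2 (-0.22), without loess (-0.29) or with unrestored intensities (-0.08).

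Of 9 Hoxd genes, 2 passed in brain, 4 in kidney and 2 in liver. Hoxd11, a kidney patterning gene, was at 0.34, 0.38, 0.83, 0.66, 0.87 and 0.39 in kidney, with a mean of 0.58 ± 0.24 (adjusted p 0.000142), against -0.02 ± 0.11 in brain. Hoxd13, a gene of the distal limb, was at -0.34 ± 0.32 in kidney and -0.34 ± 0.13 in liver. Its kidney mean was -0.13, not past, with a single loess curve per array, and -0.65 without loess. The Hoxd13 spot was dim, at percentile 14.4 in kidney and 0.866 in liver. Hoxd12 (0.19 ± 0.09) and Hoxd9 (0.27 ± 0.27) also passed in kidney.

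The calls of Hoxd8 and Hoxd3 were lost with single arrays left out, while their means kept their signs. Hoxd8 read 0.08, 0.35, 0.02, 1.21, 0.67 and 0.64 in brain, with a mean of 0.49 ± 0.44 (adjusted p 0.0276). That call was lost without brain array 4 (0.35), 5 (0.46) or 6 (0.47). In liver Hoxd8 was at 0.36 ± 0.37, where array 2 read -0.35 and the other 5 read 0.40 to 0.65, and the call was lost without liver array 1, 3, 4, 5 or 6 (0.30 to 0.35). Hoxd3 was at -0.45 ± 0.38 in brain, where array 2 read -1.19 and the other 5 read -0.47 to -0.17; it did not pass without brain array 5 (-0.45) or 6 (-0.46) or with unrestored intensities (-0.39). The opposite-strand transcript Hoxd3os1 was also lower in brain, at -0.27 ± 0.08, a call lost without brain array 2, 3 or 4 (-0.27 to -0.25) and with unrestored intensities (-0.23).

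Neighbouring Hox genes of a cluster passed together with the same sign in 1 case. Of 9 adjacent measured pairs in the Hoxa cluster, 2 had both genes past in kidney, both times with opposite signs. Of 7 Hoxc pairs 1 did, with opposite signs, and of 8 Hoxd pairs 2 did, 1 of them with the same sign. In brain and liver the count of such pairs was 0 in every cluster. Neighbouring pairs over all features were not counted, so nothing particular to Hox clusters is read from these counts.

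**Figure D3:**
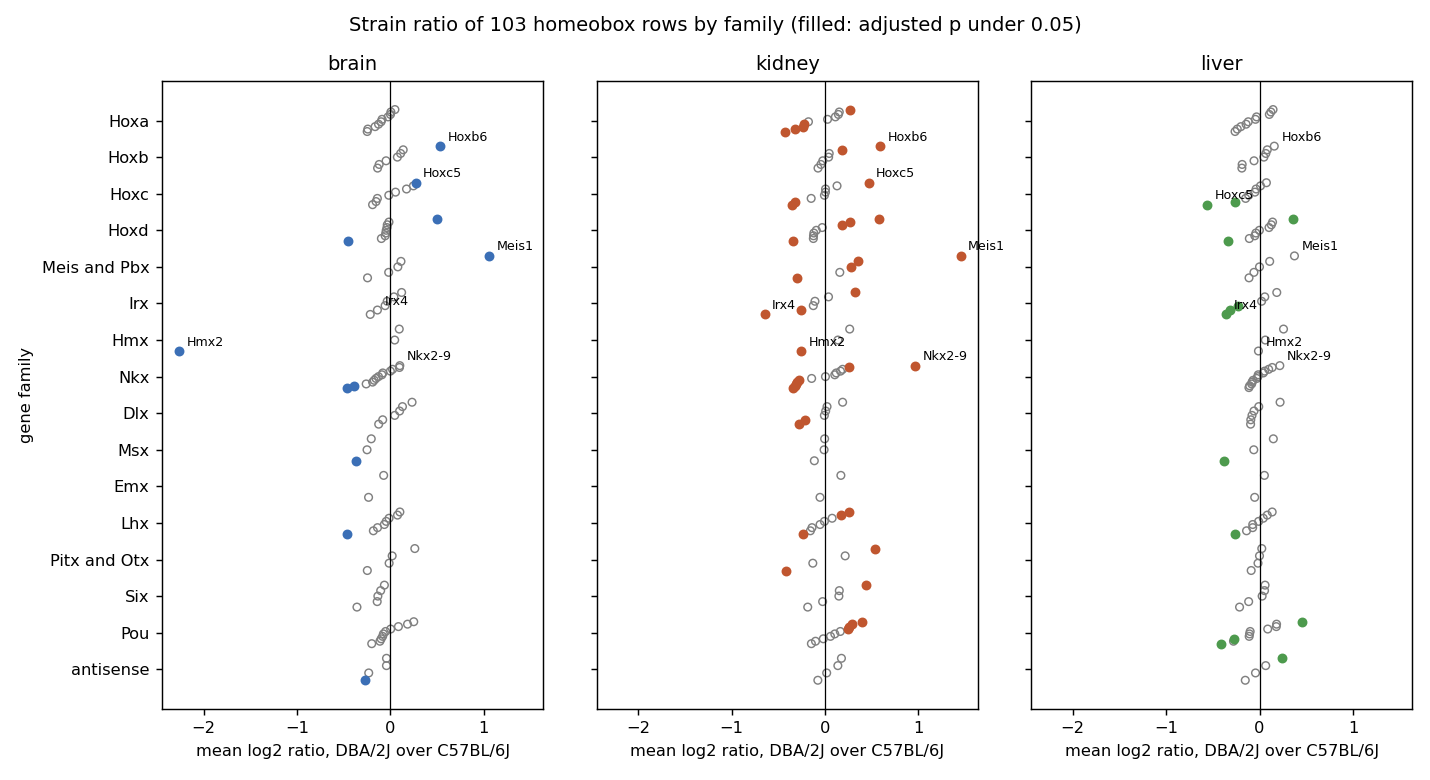
Mean log2 ratio of DBA/2J over C57BL/6J (horizontal axis) for each of the 103 homeobox rows, by gene family, in brain, kidney and liver; filled points have an adjusted p under 0.05 and open points do not. Hmx2 stands alone at -2.26 in brain and Meis1 leads in kidney at 1.45, while most other rows lie between -0.5 and 0.5.

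Of 5 Meis and Pbx genes, 4 passed in kidney, 1 in brain and 0 in liver, beside 42.0%, 13.7% and 22.9% of all features. Beside Meis1, in kidney Meis3 was higher at 0.35 ± 0.21, Pbx2, a DNA-binding partner of Hox proteins, higher at 0.28 ± 0.31, and Meis2 lower at -0.30 ± 0.21. Meis2 and Meis1 thus differed in direction in kidney. The spots of Meis2 and Pbx2 were dim there, at percentiles 6.44 and 7.05. Pbx3 was at 0.16 ± 0.07 in kidney (adjusted p 0.0531).

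Of 6 Irx genes, 3 passed in kidney and 3 in liver, all 3 lower in liver. Irx4, known for its role in the heart ventricle, read -0.61, -0.84, -0.35, -0.75, -1.06 and -0.25 in kidney and -0.17, -0.42, -0.29, -0.30, -0.22 and -0.73 in liver. All 12 values were below 0. The means were -0.65 ± 0.30 (1.56-fold lower, adjusted p 0.000169) and -0.36 ± 0.20 (adjusted p 0.00865), with -0.14 ± 0.26 in brain. Irx2 was at -0.25 ± 0.21 in kidney and -0.31 ± 0.28 in liver; the liver call was lost without liver array 1, 3, 4 or 6 (-0.32 to -0.24), without loess (-0.22) and with a single curve per array (-0.23). Irx6 was at -0.23 ± 0.16 in liver, and Irx3, which acts in the nephron and hypothalamus, was higher at 0.32 ± 0.09 in kidney.

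Of 13 Nkx genes, 2 passed in brain (15.4%), 7 in kidney (53.8%) and 0 in liver, beside 13.7%, 42.0% and 22.9% of all features. Nkx2-9, a gene of the ventral neural tube, read 0.82, 0.95, 1.09, 0.69, 1.30 and 0.94 in kidney, all above every brain and liver array for the gene. The mean was 0.97 ± 0.21 (1.95-fold higher, adjusted p 1.85e-06), beside 0.10 ± 0.19 in brain and 0.22 ± 0.18 in liver. Its spot was among the dimmest in kidney, at percentile 9.41, and the kidney mean was 0.34 without loess and 0.58 with unrestored intensities. The differences from brain (-0.87) and liver (0.75) shrank to -0.13 and 0.10 without loess and no longer passed.

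Nkx6-1, a factor of pancreatic beta cells and motor neuron precursors, was lower on every array of brain and kidney. Brain arrays read -0.39, -0.68, -0.45, -0.28, -0.43 and -0.54, with a mean of -0.46 ± 0.13 (adjusted p 0.00277), and the kidney mean was -0.30 ± 0.10 (adjusted p 0.00237). In liver it was at -0.03 ± 0.09. Nkx6-3 was at -0.39 ± 0.18 in brain and did not pass with unrestored intensities (-0.30). In kidney, Nkx2-6 (-0.34 ± 0.17), Nkx2-4 (-0.31 ± 0.15), Nkx2-2 (-0.28 ± 0.16), a factor of oligodendrocytes and islets, and Nkx1-2 were lower, and Nkx2-3 was higher at 0.26 ± 0.20. The Nkx2-6 mean was -0.25, not past, with a single loess curve per array, and its spot was dim in kidney, at percentile 10.8.

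Of 8 Lhx genes, 1 passed in brain, 3 in kidney and 1 in liver. Lhx1, needed for the embryonic kidney and head, was below 0 on all brain and kidney arrays. In brain it read -0.65, -0.39, -0.58, -0.46, -0.49 and -0.19, with a mean of -0.46 ± 0.16 (adjusted p 0.00357), and the kidney mean was -0.24 ± 0.19. Lhx2, a regulator of the forebrain and eye, was at 0.17 ± 0.09 in kidney and -0.26 ± 0.18 in liver, past in both with opposite signs. Lhx9 was at 0.25 ± 0.26 in kidney.

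Of 10 Pou genes, 4 passed in kidney, all higher, 3 in liver and 0 in brain. Pou3f1, which drives myelination by Schwann cells, read 0.18, 0.28, 0.38, 0.40, 0.41 and 0.09 in kidney and -0.45, -0.69, -0.68, -0.43, -0.20 and -0.01 in liver. The groups do not overlap. The means were 0.29 ± 0.13 and -0.41 ± 0.27, and their difference was 0.70 (SE 0.11, adjusted p 4.97e-05). Without loess the liver mean was -0.27 and did not pass, and the difference was 1.16.

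Pou3f4, a gene of the inner ear and neural progenitors, was higher in liver at 0.31, 0.37, 0.38, 0.41, 0.64 and 0.62 (mean 0.46 ± 0.14, adjusted p 0.00105). Its brain and kidney means were 0.09 ± 0.12 and 0.11 ± 0.16. Pou2f3, the tuft cell factor, was at -0.28 ± 0.20 in liver, with array 2 at -0.68; the call was lost without liver array 1, 2, 3 or 6 (-0.29 to -0.20), without loess (-0.10) and with a single curve (-0.18). Pou6f1 was at 0.40 ± 0.20 in kidney, but at -0.06 without loess and at 0.17, not past, with unrestored intensities. Pou3f3, a gene of the kidney's loop of Henle, was at 0.24 ± 0.15 in kidney and Pou5f1, the pluripotency factor, at 0.25 ± 0.20.

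The smaller families held few calls. Of 3 Msx genes, Msx3, a gene of the dorsal neural tube, was lower in brain at -0.37 ± 0.18, where array 5 read -0.73 and the other 5 read -0.35 to -0.25, and lower in liver at -0.38 ± 0.16; without loess neither passed (-0.25 and -0.21). Of 4 Pitx and Otx genes, Otx1, a forebrain and sense organ gene, was at 0.53 ± 0.24 in kidney and Pitx1, a hindlimb and pituitary gene, at -0.42 ± 0.20. Without loess these were 0.08 and -0.19 and did not pass. Of 5 genes from Six2 to Six6, Six5 was at 0.44 ± 0.38 in kidney, with -0.09 without loess, 0.34 with a single curve and 0.10 with unrestored intensities, none of them past. Of 6 Dlx genes, Dlx1 (-0.28 ± 0.21), a gene of inhibitory interneurons, and Dlx4 (-0.22 ± 0.18) were lower in kidney. Neither of the 2 Emx genes, which pattern the cortex, passed in any tissue.

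Tissue differences were tested for each gene in limma's fit of all arrays, in which each pair of comparisons shares a tissue. The ratio differed between brain and kidney for 25 of the 103 (24.3%, beside 24.8% of all features), higher in brain for 5 and lower for 20, beside 12.6% and 12.1% of all features. Between brain and liver it differed for 7 (6.80%, beside 7.63%), 2 of them higher in brain and 5 lower, beside 4.36% and 3.27% of all features. Between kidney and liver it differed for 20 (19.4%, beside 20.8%), 16 of them higher in kidney and 4 lower, beside 11.9% and 8.93%. At a difference of at least 1.5-fold past the threshold stood 5, 3 and 5 genes, beside 5.75%, 2.50% and 5.55% of all features. Without loess the counts past the threshold at any size were 42, 4 and 51, beside 35.2%, 4.11% and 45.9% of all features. The directions were then nearly even, with 19 higher and 23 lower for brain minus kidney and 25 higher and 26 lower for kidney minus liver. With a single curve per array they were 6 higher and 15 lower, and 13 higher and 1 lower. The balance of directions thus depended on the normalisation.

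Beside Hmx2 and Nkx2-9, the largest negative differences of brain minus kidney were those of Six5 (-0.79, adjusted p 0.00468) and Hoxd11 (-0.59, adjusted p 0.0038). The Six5 difference did not pass without loess (-0.38) or with unrestored intensities (-0.34). On the positive side stood Hoxd8 (0.61), Irx4 (0.51), Hoxa13 (0.40) and Pitx3 (0.39), a gene of dopamine neurons and the lens. The Hoxd8, Irx4 and Pitx3 differences were 0.21, 0.45 and 0.36 without loess and did not pass; that of Hoxd8 was 0.37, not past, with unrestored intensities. The Hoxa13 difference did not pass without brain array 2, 4 or 5 or kidney array 2, 4 or 6 (0.33 to 0.39), nor that of Pitx3 without brain array 6 or kidney array 5 or 6 (0.31 to 0.35).

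For brain minus liver, Hoxc5 had the largest positive difference at 0.83 (adjusted p 1.76e-05). Hmx2 led the negative side, followed by Nkx6-1 (-0.43), Lhx1 (-0.39) and Pou3f4 (-0.37). The Lhx1 difference did not pass without liver array 2 (-0.33), without loess (-0.47), with a single curve (-0.42) or with unrestored intensities (-0.39), and that of Nkx6-1 not without loess (-0.28). For kidney minus liver, Meis1, Hoxc5, Nkx2-9 and Pou3f1 led the positive side, and Pou3f4 (-0.35), Nkx2-2 (-0.33), Nkx2-4 (-0.30) and Nkx6-1 (-0.27) the negative side. With a single curve per array these 4 negative differences were -0.29, -0.30, -0.28 and -0.31, and none of the 4 passed. Those of Nkx2-4 and Nkx6-1 also failed with unrestored intensities (-0.28 and -0.27). The Nkx2-4 difference did not pass without kidney array 3, 4 or 5 or liver array 1, 2, 3 or 4 (-0.30 to -0.24), nor that of Nkx6-1 without kidney array 1 or 2 or liver array 3, 4 or 5 (-0.27 to -0.24).

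Genes with more than 1 spot number 9, and their spots did not always go together. Nkx1-2 passed in kidney on average (-0.32 ± 0.07), but its spots read -0.70 ± 0.17 and 0.07 ± 0.20 there, and -0.48 ± 0.17 and -0.04 ± 0.37 in brain. The kidney mean was -0.23, not past, with a single loess curve and -0.77 without loess. The spots of Dlx6os2 passed in kidney with opposite signs, at -0.22 ± 0.10 and 0.49 ± 0.22, and its mean in liver was 0.24 ± 0.16. That liver call was lost without any liver array but array 3 (0.20 to 0.26) and without loess, with a single curve or with unrestored intensities (0.10 to 0.22).

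Both spots of Pou6f1 passed in kidney, at 0.44 ± 0.33 and 0.36 ± 0.17, and 1 of them in liver (0.33 ± 0.24). For Hmx3 1 spot passed in kidney (0.22 ± 0.10) and the other was at 0.05 ± 0.14. Pou3f2, a neural progenitor factor, had 1 spot past in brain (0.38 ± 0.35) and liver (0.36 ± 0.23), with the other at 0.12 ± 0.53 and -0.00 ± 0.24. Lhx6, a gene of cortical interneurons, had 1 spot past in brain (0.24 ± 0.09) and the other at -0.04 ± 0.27, and Pou2f2, a B cell factor, 1 in liver (-0.25 ± 0.19) and the other at 0.05 ± 0.13. Hoxb3 and Pou4f1 had no spot past the threshold. Taken alone, 13.8%, 42.3% and 23.1% of all spots passed in brain, kidney and liver.

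The genes beside Hmx2 and Meis1 on their chromosomes were looked at after the values of these genes had been seen. Of the 12 measured protein-coding neighbours of Hmx2 on chromosome 7, 6 on each side, 1 passed in brain (2310057M21Rik, 0.29 ± 0.17), and their brain means spanned -0.26 to 0.29. In kidney 1 of 12 passed (Nkx1-2, itself a homeobox gene) and in liver 3. Of the 12 neighbours of Meis1 on chromosome 11, 1 passed in brain (Lgalsl, 0.48 ± 0.43), and 4 in kidney, with means from -0.39 (Etaa1) to 0.31 (Ppp3r1). In liver 4 of these 12 passed, with means from -0.36 (Aftph) to 0.40 (Lgalsl, 0.40 ± 0.28), which is above the liver value of Meis1 itself (0.37). The shares of all features past the threshold were 13.7%, 42.0% and 22.9%. Spred2, the next gene after Meis1, was at 0.01 ± 0.18 in kidney and 0.30 ± 0.17 in liver. In no tissue did a neighbour reach the size of Hmx2 in brain or of Meis1 in brain or kidney.

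**Figure D4:**
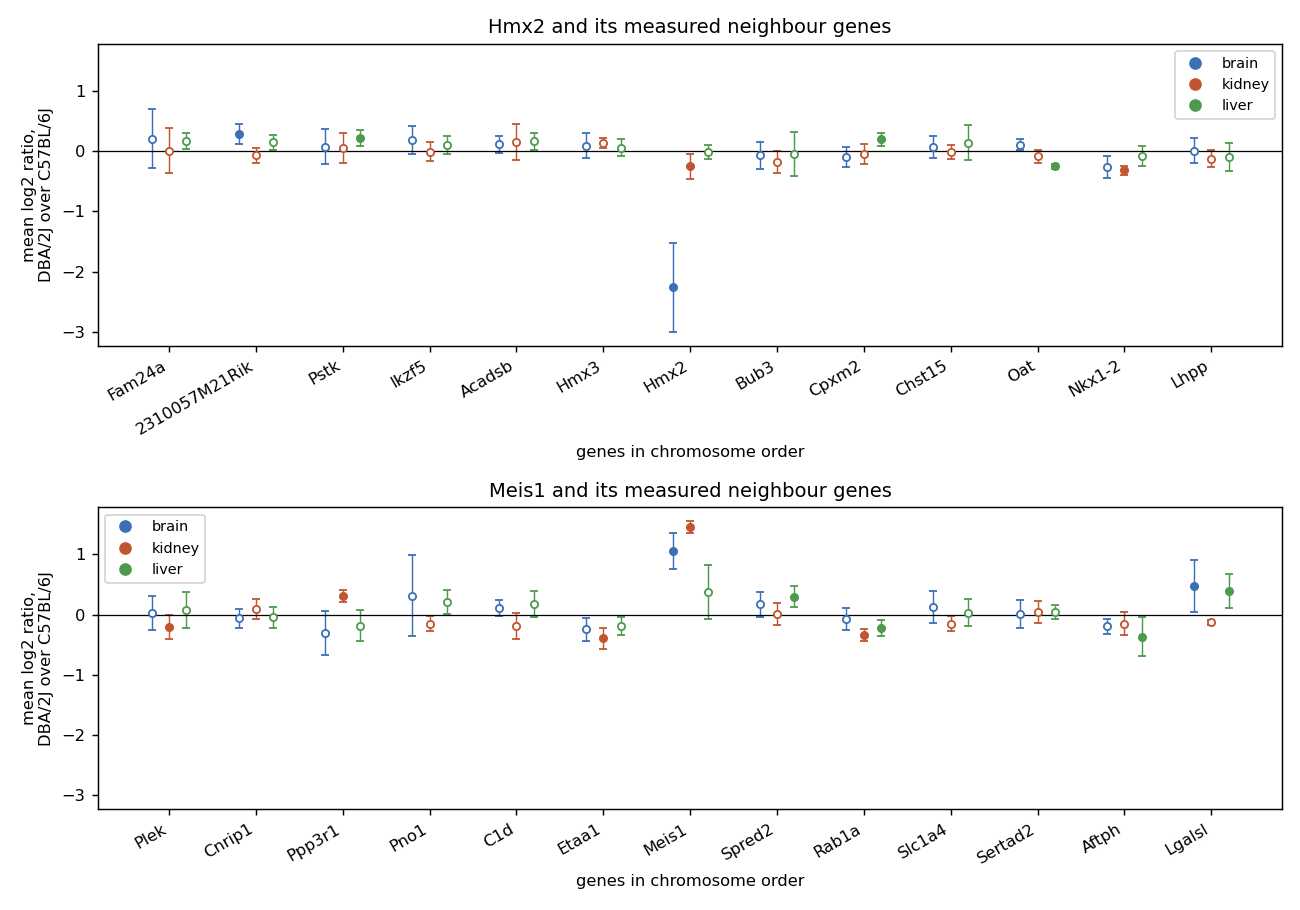
Mean log2 ratio with SD (n = 6) for Hmx2 (top) and Meis1 (bottom) and the 6 measured protein-coding genes on each side, in chromosome order, in brain, kidney and liver; filled points have an adjusted p under 0.05. Hmx2 in brain (-2.26) and Meis1 in brain (1.06) and kidney (1.45) stand apart from neighbours between -0.39 and 0.48.

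By restored intensity, 56 of the 103 spots or spot means lay above the array median in brain, 49 in kidney and 48 in liver, and 23, 29 and 31 lay below percentile 25. These are not levels of expression, because intensity depends on the probe. In brain the spots of Lhx6 lay at 6.38 and -1.44 from the array median (log2), those of Hmx3 at 1.26 and -1.01. Those of Pou2f2 were closer, at 1.99 and 1.48. Where the same probe was compared across tissues, 11 of the 103 (10.7%) were brightest in brain with no overlap between the arrays of the tissues, beside 8.89% of all features. Intensities were restored within each tissue, which draws its arrays together, so the lack of overlap is partly set by that step. They were Hoxa11, Lhx4, Six2, Hoxa11os, Pou2f3, Dlx5, Irx3, Nkx6-1, Nkx1-1, Lhx9 and Pbx3, in order of the gap to the next tissue. This gap ran from 1.77 to 0.79 on the log2 scale. Hoxa10 and Hoxd8 were brightest in kidney in this way, and no (0) gene was in liver, beside 2.55% and 4.41% of all features. In whole tissue, fewer cells of a type and less RNA per cell cannot be told apart.

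Other genes of homeobox biology were counted from 3 lists. Of 68 measured homeobox genes outside the rule (of 90 listed), 10 passed in brain (4 higher, 6 lower), 31 in kidney (23 higher, 8 lower) and 16 in liver (10 higher, 6 lower), with medians of -0.03, 0.03 and 0.03. These are 14.7%, 45.6% and 23.5% of the list, beside 13.7%, 42.0% and 22.9% of all features. Cdx2, an intestinal factor, was higher in brain on all 6 arrays at 0.96 ± 0.19 (adjusted p 5.32e-05), beside -0.11 ± 0.19 in kidney. Hesx1, a pituitary and forebrain repressor, was at 0.90 ± 0.16 in kidney and -0.35 ± 0.22 in liver. Gsx2, a striatal progenitor factor, was at -0.67 ± 0.26 in kidney, which turned to 0.21 without loess, and at -0.65 ± 0.26 in liver. Phox2a, a factor of noradrenergic neurons, was at 0.49 ± 0.46 in brain, a call lost without brain array 1, 3, 4 or 6 (0.39 to 0.54), and at 0.51 ± 0.14 in kidney, which was -0.018 without loess. Uncx was lower in liver at -0.53 ± 0.27 and Evx2 higher at 0.44 ± 0.21.

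Of 27 measured partners of homeobox proteins (of 32 listed), 1 passed in brain, 13 in kidney (8 higher, 5 lower) and 6 in liver (4 higher, 2 lower), or 3.70%, 48.1% and 22.2% beside the same 13.7%, 42.0% and 22.9%. Ssbp4, which works with LIM-homeodomain complexes, was at 0.73 ± 0.17 in kidney, and at 0.46 with a single loess curve per array. Eya3, a coactivator of Six2 and its relatives, was lower in kidney at -0.55 ± 0.11 and in liver at -0.32 ± 0.08. Eya1, another such coactivator, was at 0.56 ± 0.31 in kidney, at -0.13 without loess and at 0.27, not past, with unrestored intensities. It was the partner past in brain, lower at -0.23 ± 0.10, a call lost without any of the 6 arrays in turn (-0.26 to -0.20), without loess (-0.17) and with unrestored intensities (-0.22).

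Of 42 measured genes that act on or respond to Hox and POU factors (of 45 listed), 5 passed in brain (2 higher, 3 lower), 19 in kidney (14 higher, 5 lower) and 8 in liver (5 higher, 3 lower). The shares were 11.9%, 45.2% and 19.0%, again beside 13.7%, 42.0% and 22.9%. Aldh1a1, which makes retinoic acid, was at 1.96 ± 0.45 in kidney (3.89-fold higher, adjusted p 2.2e-07), the largest in these lists. Rarb, a retinoic acid receptor, was at 0.48 ± 0.06 there and Ezh1, a Polycomb methyltransferase, at 0.50 ± 0.17. Tshb, the thyrotropin beta chain, was at 0.30 ± 0.24 in brain, where the call was lost without brain array 1, 2, 3, 4 or 6 (0.23 to 0.35), with a single curve (0.067) and with unrestored intensities (0.19), and the mean was -0.081 without loess. Bmp4, a signal that acts with Msx genes, was lower in liver at -1.02 ± 0.28 (2.03-fold, adjusted p 3.58e-05).

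Markers of other tissues that a dissection could hold were read in the same way, against 13.7% (brain), 42.0% (kidney) and 22.9% (liver) of all features. In brain, 2 of 9 pituitary markers passed, 1 higher and 1 lower, and the median over the list ran from -0.24 to 0.03 on single arrays. Of 8 choroid plexus markers 1 passed in brain, lower, with list medians from -0.14 to -0.01. In kidney 4 of 9 pituitary markers passed, all lower, Pitx1 among them. There 4 of 9 adrenal markers passed (44.4%), all lower, beside 21.0% of all features lower in kidney, with list medians from -0.34 to -0.03, and 5 of 6 adipose markers passed, 3 higher and 2 lower, with list medians from 0.03 to 0.25. In liver 4 of 11 pancreas markers passed, all lower, with list medians from -0.37 to 0.10. Of these, 3 were at least 1.5-fold lower, beside 2.39% of all features past 1.5-fold either way. The lowest of the 11 ratios was -1.60. Blood markers had list medians of 0.11, -0.09 and -0.06 in brain, kidney and liver, with 2, 4 and 3 of 8 past. The part of these markers in the homeobox values was not tested.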

How the data were processed

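The table holds 23040 spots on 18 arrays. The deposited values are log2 ratios, which the authors, per the labels, extracted with Spot and normalised by print-tip lowess in limma. Whole-number ratios gave 100.0% of these log2 values (tolerance 1e-12), and array medians ran from -1.65 to 0.16, so they were treated as not yet normalised. Spots at 0 on every array (1275) were left out, which kept 21765. The whole numbers were recovered from each ratio. Their common factor was estimated within each tissue, towards the level of the spot over that tissue's arrays (assumed SD 0.4 on the log2 scale). Print-tip loess was then run (48 blocks, span 0.3, 4 iterations) on the ratios against the restored intensity. Ratio and restored intensity correlated by up to 0.70 on an array before this step. Of the spots used, 16642 had a single symbol, 134 several and 4989 none; 15964 symbols were updated through Entrez identifiers with RefSeq's GRCm38.p6 table, and 110 of the 112 homeobox spots matched. Spots of a gene were averaged.

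Tests used limma 3.58.1 in R 4.3.3 (lmFit, eBayes): the mean of 6 arrays against 0 within a tissue, and tissue contrasts in a fit of 18 arrays, with Benjamini-Hochberg adjustment over 20218 features at 0.05. Alternatives were no loess (arrays centred on their medians), a single loess curve per array, unrestored intensities, no dimmest 25% of features, an intensity trend with robust variance, a replicate block, each spot alone, and each array left out. Genes named are Hmx2 and Meis1; per tissue, up to 8 past the threshold with the highest and 8 with the lowest ratios; up to 4 each way per tissue contrast; genes with several spots of which at least 1 passed; up to 4 per other list and tissue; and Glo1. Other genes named were chosen after their values were seen. Members and lists were chosen with earlier results of these data known.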

Additional observations from a re-analysis of the deposited data

Results flagged for a closer look

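Among 50 tissue results of named homeobox genes, 5 had 1 array far from the other 5. The cut-off is set so that about 1 in 20 sets of normally distributed values pass it. The share over all features was not counted, and results on the same array are not independent. Nothing particular to these genes is therefore read from this count. Hoxd3 in brain had array 2 at -1.19, with the others between -0.47 and -0.17. Msx3 in brain had array 5 at -0.73, with the others between -0.35 and -0.25. In liver, array 2 stood apart for Hoxd8 (-0.35, others 0.40 to 0.65), for Pou2f3 (-0.68, others -0.26 to -0.11) and for Pou6f1 (0.45, others 0.08 to 0.17).

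The 22 differences between tissues listed here were named by the rule because they passed limma's contrast, so their number is set by that rule. For brain minus kidney the differences were -2.01 for Hmx2, -0.87 for Nkx2-9, -0.79 for Six5, -0.59 for Hoxd11, 0.39 for Pitx3, 0.40 for Hoxa13, 0.51 for Irx4 and 0.61 for Hoxd8. For brain minus liver they were -2.25 for Hmx2, -0.43 for Nkx6-1, -0.39 for Lhx1, -0.37 for Pou3f4, 0.69 for Meis1 and 0.83 for Hoxc5. For kidney minus liver they were -0.35 for Pou3f4, -0.33 for Nkx2-2, -0.30 for Nkx2-4, -0.27 for Nkx6-1, 0.70 for Pou3f1, 0.75 for Nkx2-9, 1.03 for Hoxc5 and 1.08 for Meis1. Hoxc5 and Pou3f1 had opposite signs in kidney and liver, each past the threshold.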

How the results depend on the processing

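Without loess the counts of homeobox genes past the threshold were 21 in brain, 71 in kidney, 42 for brain minus kidney, 4 for brain minus liver and 51 for kidney minus liver, where 17.5%, 64.9%, 35.2%, 4.11% and 45.9% of all features passed. A single curve per array gave 19 in brain (14.7% of all features), and leaving out the dimmest 25% gave 27 in kidney, of 74 genes then tested (38.8%). With each array left out in turn the counts ran from 8 to 15 in brain, 32 to 37 in kidney, 7 to 15 in liver, 19 to 25 for brain minus kidney, 6 to 8 for brain minus liver and 14 to 19 for kidney minus liver. The shares of all features then ran from 6.61% to 16.3%, 34.6% to 40.3%, 14.6% to 22.9%, 19.2% to 26.8%, 5.82% to 7.81% and 16.4% to 20.9%. Of 72 named homeobox results, 46 kept their direction and side of the threshold without loess, 55 with a single curve, 55 with unrestored intensities and 72 with a trend and robust variance. The sign turned without loess for Dlx6os2 in kidney (-0.59), Hmx2 in liver (0.19), Hmx3 (-0.21), Pou6f1 (-0.058), Six5 (-0.092), Eya1 (-0.13), Gsx2 (0.21) and Phox2a (-0.018) in kidney and Tshb in brain (-0.081). A single curve turned Dlx6os2 (-0.037) and Hmx3 (-0.090) in kidney and Hmx2 in liver (0.26), and unrestored intensities turned Dlx6os2 in kidney (-0.15) and Hmx2 in liver (0.0093). Hmx2 in liver ran from -0.044 to 0.018 with each liver array left out, above 0 without liver array 3 or 4. The cause of these changes was not tested.

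Replicate numbers did not pair the arrays: same-numbered arrays of different tissues correlated between -0.233 and 0.161. A replicate block gave 24, 7 and 19 homeobox genes for brain minus kidney, brain minus liver and kidney minus liver, and of 22 named differences it ended 1 (Nkx2-4, kidney minus liver, adjusted p 0.0535). Background and foreground signals are not used here, so no spot could be called above background.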
